A study of Rattus norvegicus with 15 samples.

Results

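Rat hepatocytes, the main cell type of the liver, were compared at 3 DNA contents, and the question followed here was which RNAs stood apart at 4c, the middle one. 5 differences were formed for every feature, 1 in each experiment: the 4c level minus the mean of the 2c and 8c levels, all on a log2 scale. The features came from all 45598 non-control probes of the array, of which the 16917 bright enough were tested, a single feature per gene name. A gene symbol was known for 11146. All 15 arrays of the study entered, 5 at 2c, 5 at 4c and 5 at 8c. A feature that is highest or lowest at 4c does not follow the DNA content up or down, so its course is not monotonic.

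The animals were female Wistar rats of 12, 14, 6, 5 and 6 weeks in experiments 1 to 5. In each experiment hepatocytes were stained with the DNA dye Hoechst33342 and sorted by flow cytometry into 2c, 4c and 8c fractions, and total RNA was labelled with Cy3 and read on a one-colour array. The labels name no treatment and no transgene. How many animals an experiment pooled is not stated in the labels, and p-values therefore measure the spread between these 5 experiments. That spread was taken from a single fit over all arrays. It therefore includes how the 8c minus 2c difference varied between experiments, and not only how the 4c difference did.

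In the liver, hepatocytes become polyploid when a cell replicates its DNA and fails to divide its cytoplasm or its nuclei. The letter c counts copies of the haploid genome, so a cell with a 4c content can be a tetraploid cell at rest, mononucleate or binucleate, or a diploid cell that has replicated its DNA and not yet divided. An 8c cell can in the same way be an octoploid cell at rest or a tetraploid cell before division. Genes of DNA replication are transcribed mostly around S phase, and genes of spindle assembly, chromosome segregation and cytokinesis mostly in G2 and mitosis. In RNA from sorted fractions, fewer cells of a type and less RNA per cell cannot be told apart.

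Levels are log2 intensities with the 75th percentile of the commonly detected probes set to 0 on each array. Between 39.5% and 47.4% of the probes on an array carried the extraction software's mark for a signal well above background, and no spot was saturated. The 26 hepatocyte identity genes were all detected on all 15 arrays, and Alb, the serum albumin gene, had levels of 7.10 ± 0.33 at 2c, 7.04 ± 0.35 at 4c and 6.96 ± 0.31 at 8c (SD, n = 5). Transcripts of pancreatic acinar cells, which make digestive enzymes, were high on 6 arrays: the 2c and 8c arrays of experiment 1, all 3 of experiment 2 and the 8c array of experiment 3. The arrays lay on 2 slides, and the 8c array of experiment 3 was on the other slide than its 2c and 4c arrays.

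Many of the RNAs that were lower at 4c than the mean of the other fractions belong to cell division. Against the mean of 2c and 8c, 65 features were lower at 4c (0.384% of those tested) and 3 were higher (0.0177%), by limma at a Benjamini-Hochberg adjusted p under 0.05. The median over the 65 was -1.48, 44 of them were lower by at least 2-fold, and 41 of them were placed with mitosis, replication, repair, microtubules or chromatin, a grouping made after the values were seen. The 3 higher features were Bst2, an antiviral membrane protein, Exoc3l4 and Stac. As a description of features that the test had already selected for a low 4c level, the 4c group mean was the lowest of the 3 in all 65, and 47 were lowest at 4c within each of the 5 experiments (1.51% of all features were). At 4c, 22 of the 65 were above background on all 5 arrays, 39 on some and 4 on none. Sizes and ranks of many of the 65 therefore rest partly on dim spots. The 3 higher features, selected for a high level, were highest at 4c within each experiment (0.632% of all features were), although for Stac no array of experiments 3 and 4 was above background. At an unadjusted p under 0.05, 1252 features (7.4%) were lower and 675 (3.99%) higher.

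**Figure D1:**
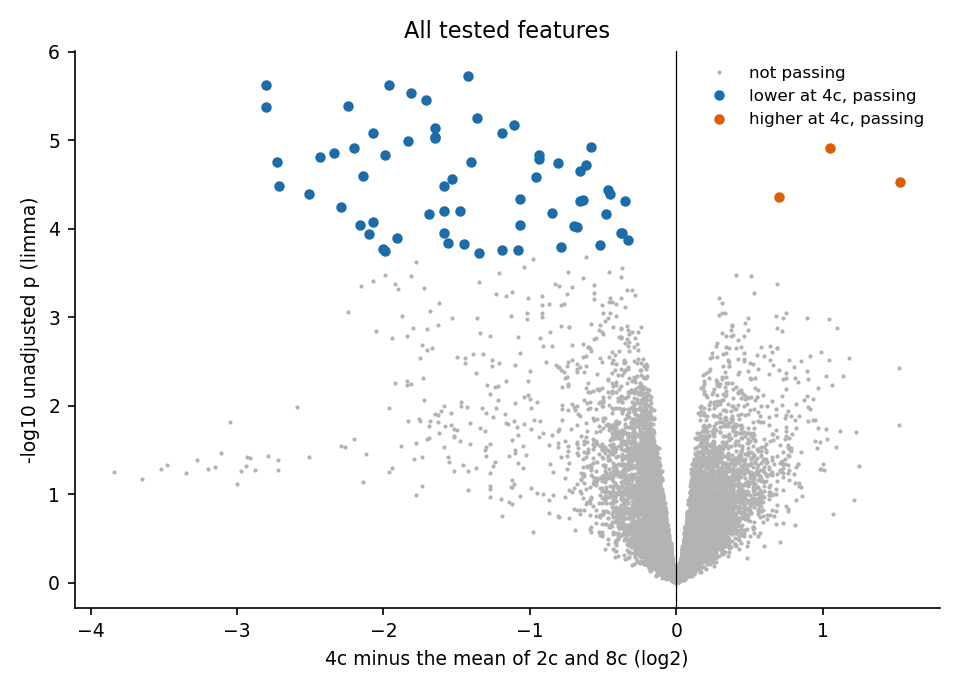
Difference of 4c from the mean of 2c and 8c (log2, horizontal axis) against -log10 of the unadjusted p of limma (vertical axis) for each tested feature; blue points are the 65 features lower at 4c and orange points the 3 higher. The lower features reach further from 0 and are more numerous than the higher ones.

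The calls depend on using the experiment as a block. Without it no feature passed (smallest adjusted p = 0.126 by limma), with 464 lower and 293 higher at an unadjusted p under 0.05. They also depend on taking the spread from all arrays. With the 5 differences tested alone, no feature passed either (smallest adjusted p = 0.0678 by limma). At an unadjusted p under 0.05, 1161 were lower and 749 higher in that test. With the block, 0, 68, 0, 32 and 1 lower features passed without experiment 1, 2, 3, 4 and 5 in turn. Of the 68 features that passed with all experiments, 40 passed without experiment 2 and 33 without experiment 4; all 68 kept their sign in each of these fits, while within slide 1 only Cdk1 passed and within slide 2 none did.

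Genes of G2 phase and mitosis made up much of the lower set. Of 48 on the list, 37 were bright enough to be tested, 16 were lower at 4c (0.384% of all tested features were) and none was higher. The median difference was -1.65 against -0.02 for all tested features. The medians of experiments 1 to 5 were -1.98, -0.88, -1.33, -1.04 and -1.78. Only 9 of the 37 were well above background on all 15 arrays; the others passed the brightness filter largely through the 8c arrays, so the count and the median describe the tested members alone. When only features above background on all 15 arrays were tested, the median of the list was -0.50 and 0 of its members passed. The sizes depend on the background correction: with normexp in place of the software's subtraction, Cdk1 differed by -1.43, Mki67 by -0.99, Ccna2 by -0.78, Prc1 by -0.69 and Ncaph by -0.53, and of these only Cdk1 passed (adjusted p = 0.0379 by limma).

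Cdk1, whose kinase activity starts mitosis, showed the course most clearly. Its levels in experiments 1 to 5 were -3.30, -6.44, -3.56, -1.83 and -2.84 at 2c, -4.97, -7.84, -4.76, -2.09 and -4.82 at 4c, and -0.26, -2.88, -0.14, 0.13 and 0.19 at 8c. The 4c array was the lowest of the 3 in each experiment, the 8c array was the highest, and the 14-week animals of experiment 2 lay lowest at all 3 contents. The difference of 4c from the mean of 2c and 8c was -2.80 ± 0.30 (SE), a 6.98-fold lower level (adjusted p = 0.0103 by limma). The step from 4c up to 8c made up most of it: 4c minus 8c was -4.30 (adjusted p = 0.000383) and 4c minus 2c was -1.30 (adjusted p = 0.109, both by limma). The Cdk1 array probe lies at chr20:20043755-20043814 of the rn4 assembly, and was above background on 4 of 5 arrays at 4c and 4 of 5 at 2c. Both dim arrays were those of experiment 2, so the order of 2c and 4c there rests on dim spots.

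Mki67 encodes Ki-67, the coat protein of mitotic chromosomes used as a marker of proliferation. Its levels were -3.65, -5.81, -3.98, -2.42 and -3.27 at 2c and -4.72, -7.06, -4.23, -2.45 and -4.53 at 4c. At 8c they were -1.14, -3.74, -0.94, -0.55 and -0.90. The 4c array was the lowest of the 3 in each experiment, although in experiments 3 and 4 it lay close to the 2c array. The difference was -1.96 ± 0.21 (SE, adjusted p = 0.0103 by limma), and 3 further Mki67 probes gave -1.55, -1.81 and -2.17.

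The mitotic cyclins were lower at 4c than the mean of 2c and 8c as well. Ccna2, the cyclin of S phase and early mitosis, had a difference of -2.73 ± 0.36, Ccnb1 one of -2.10 ± 0.35 and Ccnb2 one of -1.65 ± 0.20 (SE, adjusted p = 0.0119, 0.0340 and 0.0114 by limma). Most of this was the step to 8c: 4c minus 8c was -4.13, -3.71 and -2.99 for Ccna2, Ccnb1 and Ccnb2. Their 4c minus 2c was -1.33, -0.48 and -0.31 and did not pass (adjusted p = 0.162, 0.597 and 0.543 by limma). In experiment 4 Ccnb2 was higher at 4c (-2.70) than at 2c (-2.92). Only 1 of 5 arrays at 4c was above background for Ccna2 and 1 of 5 for Ccnb1, and with dim arrays set to the detection floor the differences were -2.24 and -1.91. Plk1, a kinase of spindle assembly and mitotic exit, lay at -4.64 ± 1.1 at 2c, -5.05 ± 1.14 at 4c and -1.49 ± 1.14 at 8c (SD, n = 5). Its difference was -1.99 ± 0.26 (SE), lowest at 4c in 5 of 5 experiments, but its 2c and 4c levels were only 0.41 apart. In experiment 2 neither its 2c nor its 4c array was above background, so the order of those 2 rests on dim spots. Nek2, a kinase of the centrosome, had a difference of -2.34, and Cdca3, a trigger of mitotic entry, one of -2.43.

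Parts of the segregation machinery showed the same order of group means, lowest at 4c and highest at 8c. Prc1, which bundles the microtubules of the central spindle, was at -5.95, -6.95, -7.69, -4.79 and -5.92 at 2c, at -7.65, -8.28, -7.98, -5.13 and -7.19 at 4c, and at -2.90, -5.37, -2.74, -2.47 and -2.57 at 8c. Only 1 of the 5 arrays at 4c and 2 at 2c were above background for Prc1, so its dip below 2c rests on dim spots. The difference of Prc1 was -2.51, and a second Prc1 probe gave -1.61. Ect2, the exchange factor that sets up the cleavage furrow, differed by -2.16, Spc25 of the kinetochore by -2.14, Hjurp, the chaperone that loads the centromeric histone, by -2.07, the condensin subunit Ncaph by -2.24 and the spindle protein Nusap1 by -1.83. At 4c, Ect2 and Ncaph were above background on 1 of 5 arrays, Spc25 on 2, and Hjurp and Nusap1 on 3, so ranks within an experiment are not given for them. A feature without a symbol beside the Ncaph probe, ENSRNOT00000016157, was above background on 5 of 5 arrays at each DNA content and differed by only -0.64.

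Of all 29 lower features placed with mitosis, 27 were more than 2 times as far below 8c as below 2c on the log2 scale, and the other two, Ncapd3 and Pkmyt1, were within a factor of 2; these roles were assigned after the values were seen. Their median was -3.11 for 4c minus 8c and -0.71 for 4c minus 2c. Only 1 of the 29 was above background on all 15 arrays. Dim levels at both 2c and 4c can make the step to 2c small, and this part of the shape was not tested. All 29 passed 4c against 8c, and 1 passed 4c against 2c when that comparison was adjusted by itself. These pairwise values share the 4c arrays and are given side by side only. The 4 features without a symbol that were linked by description to Ki-67, stathmin, centromere protein H and Ncaph were all more than 2 times as far below 8c as below 2c. They may not be separate genes. The one linked to Ncaph, at chr3:114653797-114653856 of rn4, lies beside the Ncaph probe at chr3:114651323-114651382 and may be the same gene counted again.

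**Figure D2:**
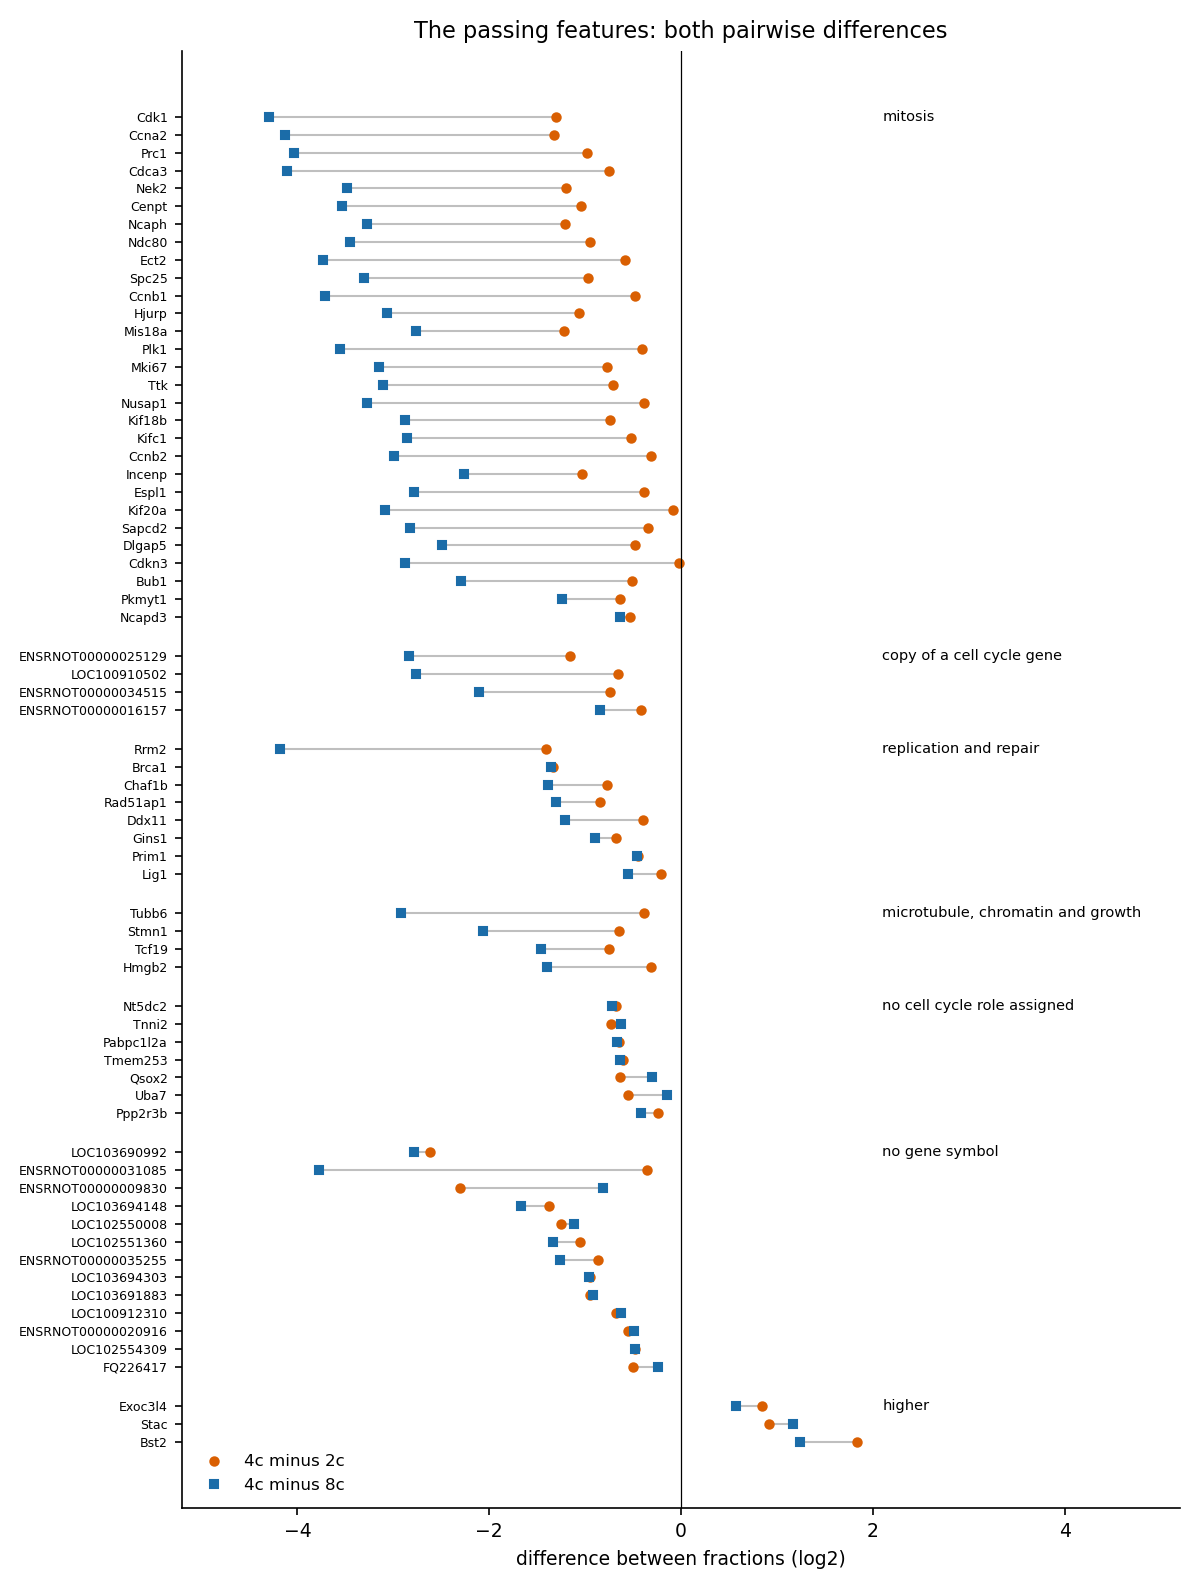
The 68 passing features by role, with 4c minus 2c (orange circles) and 4c minus 8c (blue squares) on a log2 scale, from 1 fit over 15 arrays. For mitosis the median is -0.71 towards 2c and -3.11 towards 8c, whereas for the features with no gene symbol the medians are -0.95 and -0.96. Of these 2 sets, 1 of 29 and 7 of 13 features were above background on all 15 arrays.

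The promoters of these genes can be set beside the values. Cell cycle promoters are known to carry a cell cycle homology region, CHR, with the letters TTTGAA, often near CCAAT boxes, which bind the factor NF-Y. In RefSeq promoters of the GRCr8 assembly, taken from 250 bases before to 50 after the gene start and searched on both strands, TTTGAA occurred in 14 of the 25 mitosis genes with a promoter (56.0%) and in 19.4% of all 27457 genes. CCAAT occurred in 18 of the 25 (72.0%) and in 39.6% of all genes, and both together in 13 of the 25 (52.0%) and in 8.50%. A match is a match of letters and shows no binding. The stretches below carry both motifs and are shown for the kinase, the proliferation marker, a cyclin and the spindle protein; capitals mark TTTGAA and CCAAT or their reverse complements, which in Mki67 overlap at 1 site.
Cdk1, chr20:19265203-19265292, plus strand: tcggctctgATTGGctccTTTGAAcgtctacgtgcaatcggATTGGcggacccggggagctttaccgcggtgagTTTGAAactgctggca
Mki67, chr1:199952673-199952743, minus strand: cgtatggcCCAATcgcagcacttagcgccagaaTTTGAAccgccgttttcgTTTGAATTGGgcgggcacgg
Ccnb2, chr8:79981688-79981768, minus strand: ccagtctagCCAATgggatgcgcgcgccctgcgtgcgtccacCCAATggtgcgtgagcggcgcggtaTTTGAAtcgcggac
Prc1, chr1:143659421-143659480, plus strand: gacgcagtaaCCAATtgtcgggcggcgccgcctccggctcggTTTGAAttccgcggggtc

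The stretches of Cdk1 and Prc1 end at the base before the gene start, that of Mki67 ends 80 bases and that of Ccnb2 30 bases before it. Each of the 4 genes was lowest at 4c as a group mean and highest at 8c, as the levels above show for Cdk1, Mki67 and Prc1.

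**Figure D3:**
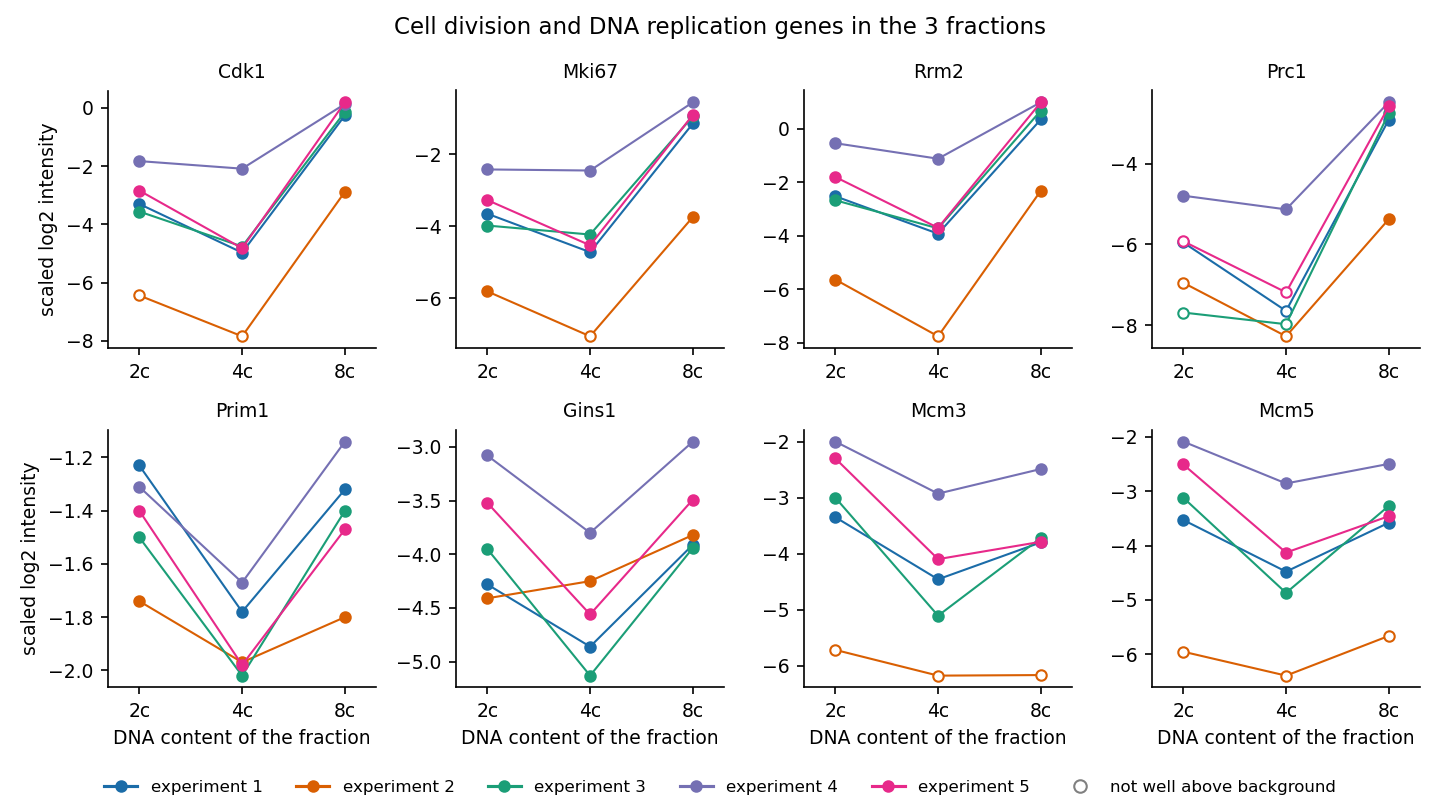
Scaled log2 intensity of 8 cell division and replication genes at 2c, 4c and 8c, with 1 line per experiment; open circles were not well above background. Cdk1, Mki67, Rrm2 and Prc1 rise steeply from 4c to 8c, while Prim1, Gins1, Mcm3 and Mcm5 dip at 4c by similar steps or lean to 2c.

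Replication genes were lower at 4c by a smaller median than the mitotic list. Of 44 S phase genes on the list 32 were tested, 5 were lower at 4c (Rrm2, Prim1, Lig1, Gins1 and Chaf1b) and none was higher. Among all tested features 0.384% were lower. All 32 had a 4c level below the mean of 2c and 8c, as did 9423 of all 16917 tested features. Of the 32, 23 were above background on all 15 arrays. The median was -0.40, with medians of -0.41 for 4c minus 2c and -0.32 for 4c minus 8c that single members often did not share, and the medians of experiments 1 to 5 were -0.41, -0.12, -0.56, -0.35 and -0.48. Chaf1b was chosen for naming after its values were seen.

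Prim1, the catalytic subunit of primase, which lays down the RNA primers of new DNA strands, is the plainest case. It was at -1.23, -1.74, -1.50, -1.31 and -1.40 at 2c, at -1.78, -1.97, -2.02, -1.67 and -1.98 at 4c, and at -1.32, -1.80, -1.40, -1.14 and -1.47 at 8c. The 4c array was lowest in 5 of 5 experiments, and in each the 2c and 8c arrays lay closer to one another than to 4c. The difference was -0.45 ± 0.07 (SE, adjusted p = 0.0187 by limma), with -0.45 towards 2c and -0.46 towards 8c, both of which passed in their own comparisons (adjusted p = 0.0340 and 0.0249). In contrast Rrm2, the regulated subunit of ribonucleotide reductase, moved with the mitotic genes.

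Rrm2 was at -2.52, -5.63, -2.67, -0.54 and -1.80 at 2c, at -3.92, -7.75, -3.72, -1.12 and -3.70 at 4c, and at 0.35, -2.31, 0.68, 0.99 and 0.99 at 8c. Its difference was -2.80 ± 0.32 (SE, adjusted p = 0.0103 by limma), with -1.41 towards 2c and -4.18 towards 8c. A second Rrm2 probe gave -1.23, so the size, though not the sign, depends on the probe. Gins1, a subunit of the replicative helicase complex, differed by -0.79 ± 0.14, Lig1, the ligase that joins Okazaki fragments, by -0.38 ± 0.06, and Chaf1b, which assembles histones onto new DNA, by -1.08 ± 0.19 (SE, adjusted p = 0.0435, 0.0340 and 0.0444 by limma).

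The helicase subunits of the Mcm complex did not pass. Mcm5 differed by -0.98 ± 0.18 (SE, adjusted p = 0.0533 by limma), Mcm3 by -0.92 ± 0.19 (adjusted p = 0.106) and Mcm2 by -0.28 ± 0.11 (adjusted p = 0.388). Neither Mcm3 nor Mcm5 was above background on any array of experiment 2. Mcm2 was lowest at 4c in 1 of 5 experiments, its 8c level of -1.96 ± 0.35 lying beside its 4c level of -1.89 ± 0.27 (SD, n = 5). Brca1, the repair gene named after its values were seen, was at -4.55 ± 0.44, -5.89 ± 1.05 and -4.53 ± 0.74 at 2c, 4c and 8c (SD, n = 5), a dip of 1.34 and 1.36 on the log2 scale to the 2 sides. It was above background on 3 of 5 arrays at 4c.

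E2F factors switch on replication genes around S phase. The E2F letters TTTCCCGC, TTTGGCGC or TTTCGCGC, on either strand, occurred in 5 of the 45 lower features with a RefSeq promoter (11.1%) and in 1.93% of all genes; 2 of the 7 replication and repair genes held them, and TTTGAA was in 1 of those 7. The stretches of Gins1 and of Stmn1, a microtubule destabiliser that also passed, are shown because they hold such a match; capitals mark the E2F letters and CCAAT or its reverse complement. In Gins1 the match is read on both strands, which overlap.
Gins1, chr3:160184870-160184919, plus strand: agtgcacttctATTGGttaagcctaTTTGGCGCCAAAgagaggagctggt
Stmn1, chr5:151965054-151965119, plus strand: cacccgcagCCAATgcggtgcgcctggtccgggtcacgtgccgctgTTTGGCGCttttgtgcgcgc

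A further set was lower at 4c and was given no cell cycle role here. It held 7 named genes, Tmem253, Qsox2, Pabpc1l2a, Uba7, Nt5dc2, Tnni2 and Ppp2r3b, with differences from -0.33 to -0.70, and 13 features without a symbol, with a median of -1.07; the grouping and the choice of the genes described were made after the values were seen. Of these 20, already selected as low at 4c, 19 were lowest at 4c in each of the 5 experiments, and 14 were above background on all 15 arrays. In 15 of the 20 the steps to 2c and to 8c were within a factor of 2 of each other, in 4 the step to 2c was the larger by more than that, and in 1 the step to 8c. The array file gives no name for the 13, so a cell cycle gene among them is possible: ENSRNOT00000035255, at chr6:143751072-143763423 of rn4, lies next to the probe of the condensin gene Ncapg2, at chr6:143763752-143763811.

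Pabpc1l2a, described as a poly(A)-binding protein like gene, was among the brightest. It was at 3.41, 4.08, 4.06, 4.08 and 4.31 at 2c, at 3.12, 3.50, 3.15, 3.40 and 3.51 at 4c, and at 3.38, 4.32, 4.25, 3.89 and 4.15 at 8c. Within each experiment the 4c array was lowest, and the smallest dip was in experiment 1. The difference was -0.66 ± 0.10 (SE, adjusted p = 0.0197 by limma), with -0.65 towards 2c and -0.67 towards 8c. Tmem253 and Tnni2, the fast skeletal troponin I gene, differed by -0.62 ± 0.08 and -0.68 ± 0.11 (SE).

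The RNA at LOC102550008, known here only by its locus, was at -1.92, -1.31, -1.28, -1.74 and -1.73 at 2c, at -2.65, -2.92, -2.89, -3.11 and -2.67 at 4c, and at -2.22, -1.19, -1.33, -2.08 and -1.83 at 8c. All 5 arrays at 4c lay below all 10 others. Its difference was -1.19 ± 0.14 (SE, adjusted p = 0.0114 by limma), with -1.25 towards 2c (adjusted p = 0.0141) and -1.12 towards 8c (adjusted p = 0.0128). LOC103694303 differed by -0.96 ± 0.13, LOC103691883 by -0.94 ± 0.12 and LOC100912310 by -0.66 ± 0.09, each lowest at 4c in 5 of 5 experiments. LOC103690992 differed by -2.71 ± 0.39, but only 1 of its 5 arrays at 4c was above background, against 5 at 2c and 5 at 8c. LOC103694148 differed by -1.53 ± 0.21 with 3 of 5 arrays above background at 4c.

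These RNAs are identified by their 60-base probes, which are printed because the file gives them no gene name. The median A and T content of the probes of the 13 unnamed features was 58.3%, against 55.0% for all tested features. Positions are those of the rn4 assembly in the array file, and LOC103694303 has none there. The part of a transcript under each probe is not given in the sources used here.
LOC102550008, chr2:157413162-157413221: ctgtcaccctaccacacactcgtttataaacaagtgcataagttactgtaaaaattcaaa
LOC103694303: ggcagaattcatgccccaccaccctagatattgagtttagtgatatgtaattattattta
LOC103691883, chr3:114809750-114809809: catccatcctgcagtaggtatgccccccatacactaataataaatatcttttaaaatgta
LOC100912310, chr12:45245548-45245661: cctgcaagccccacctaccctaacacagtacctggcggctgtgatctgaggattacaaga
LOC103690992, chr1:52000357-52000416: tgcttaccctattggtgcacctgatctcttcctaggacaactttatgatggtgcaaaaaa
LOC103694148, chr17:97211733-97211792: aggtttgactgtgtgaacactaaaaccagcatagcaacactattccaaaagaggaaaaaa

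**Figure D4:**
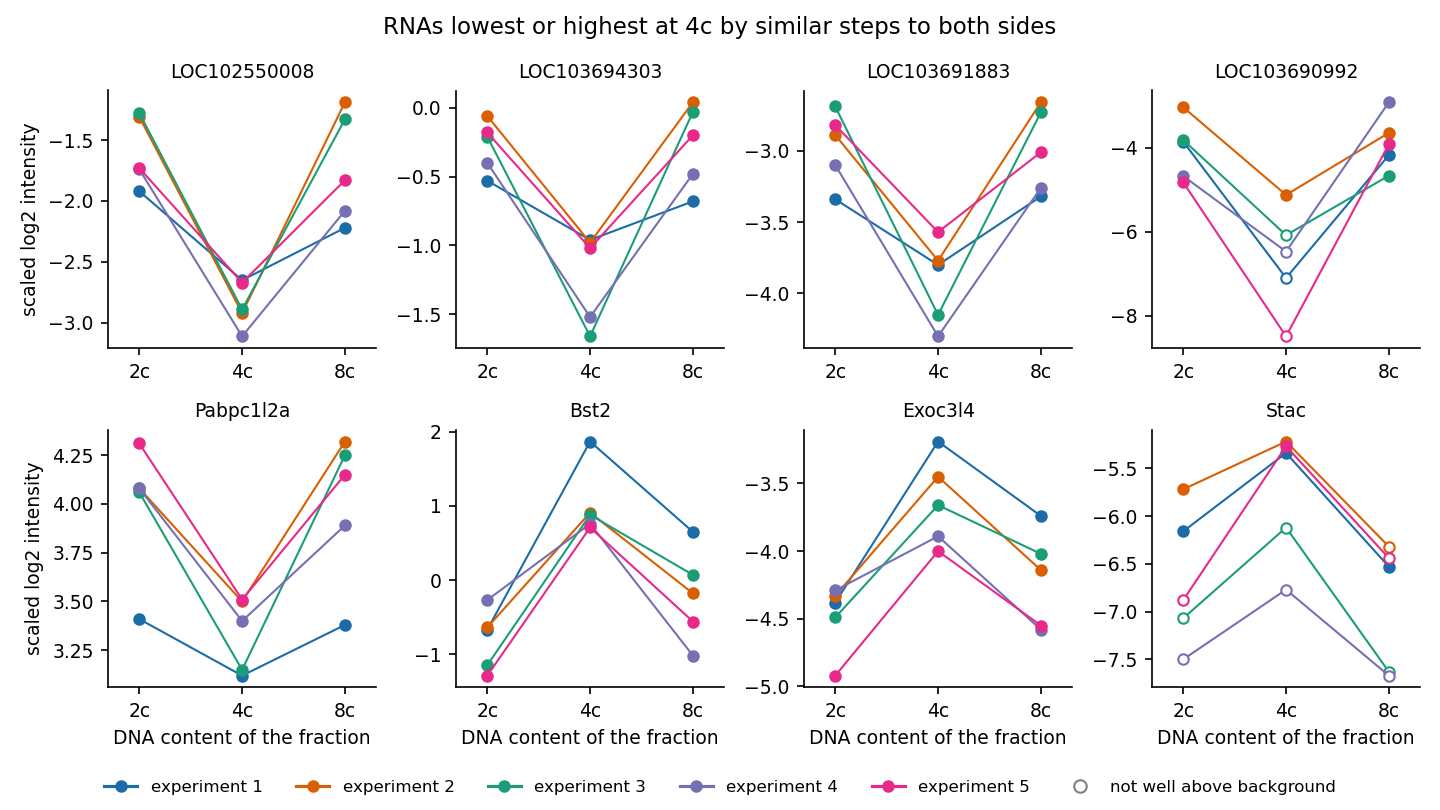
Scaled log2 intensity of 5 RNAs that dip at 4c and of the 3 that peak there, at 2c, 4c and 8c, with 1 line per experiment and open circles for arrays not well above background. LOC102550008 at 4c lies between -3.11 and -2.65, below all 10 other arrays, and Bst2 at 4c between 0.71 and 1.87.

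Bst2, also called tetherin, which holds budding virus particles at the cell surface and is induced by interferon, was the largest rise. It was at -0.67, -0.64, -1.15, -0.27 and -1.29 at 2c, at 1.87, 0.91, 0.88, 0.76 and 0.71 at 4c, and at 0.65, -0.18, 0.07, -1.02 and -0.56 at 8c. All 5 arrays at 4c lay above all 10 others. The difference was 1.53 ± 0.22 (SE), a 2.89-fold higher level (adjusted p = 0.0158 by limma), with 1.83 towards 2c (adjusted p = 0.0158) and 1.24 towards 8c (adjusted p = 0.0733). Left out in turn, the experiments gave differences from 1.45 to 1.59, and Bst2 passed without experiment 4 but not without experiment 1, 2, 3 or 5.

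Bst2 alone passed among the listed interferon response genes. Of 23 on the list 20 were tested, 2 were lower at an unadjusted p under 0.05 (7.4% of all features were), and the median was -0.01. With Bst2 included, 7 of the 20 lay above the mean of 2c and 8c, and 4 had their highest group mean at 4c. The RefSeq promoter of Bst2 (GRCr8) holds an interferon-type pair of GAAA with 2 bases of any kind between them (either strand). That pair occurs in the promoters of 4.12% of all genes with one. In Bst2 the pair is read at 2 overlapping places, in capitals in the stretch from 150 to 90 bases before the gene start.
Bst2, GRCr8 chr16:18255057-18255117, minus strand: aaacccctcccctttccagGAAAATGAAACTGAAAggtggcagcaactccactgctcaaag

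Exoc3l4, which resembles a subunit of the vesicle-tethering exocyst, was dimmer. It was at -4.38, -4.33, -4.49, -4.29 and -4.92 at 2c, at -3.19, -3.45, -3.66, -3.89 and -4.0 at 4c, and at -3.74, -4.14, -4.02, -4.58 and -4.55 at 8c. The 4c array was highest in 5 of 5 experiments, although 4c in experiment 5 lay below 8c in experiment 1. The difference was 0.70 ± 0.10 (SE, adjusted p = 0.0196 by limma). Stac, an adaptor protein gene named after its values were seen, differed by 1.05 ± 0.13 (adjusted p = 0.0115) but was above background on 2, 3 and 1 of 5 arrays at 2c, 4c and 8c. With normexp Exoc3l4 differed by 0.22 and Stac by 0.10, and neither passed (adjusted p = 0.685 and 0.977 by limma).

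The next 10 genes upwards did not pass. Cyb561d2 had a difference of 0.51 (adjusted p = 0.0723 by limma) and was highest at 4c in 5 of 5 experiments. The others were Ipo5, a nuclear import receptor, at 0.29, Asxl1, a chromatin regulator, at 0.31, Icmt, the enzyme that methylates prenylated proteins, at 0.31, Tmub1 at 0.33, Pigu, of the GPI anchor transamidase, at 0.29, Smim30l1 at 0.68, Iqcf1 at 0.73, Atp6ap1, an accessory subunit of the vacuolar proton pump, at 0.49 and Slc35f6 at 0.38. Their adjusted p ran from 0.0962 to 0.141.

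Immediate early genes, which respond to signals within minutes, gave small positive values that did not pass. Of 22 on the list 20 were tested, 0 passed in limma, and 7 were higher at an unadjusted p under 0.05 (3.99% of all features were). The median was 0.19, and 17 lay above the mean of 2c and 8c, as did 7494 of all 16917 tested features. The medians of experiments 1 to 5 were 0.20, 0.18, 0.26, 0.15 and 0.26. Gadd45g, the brightest, was at 3.79 ± 0.06, 3.98 ± 0.16 and 3.78 ± 0.15 at 2c, 4c and 8c (SD, n = 5; adjusted p = 0.271 by limma), and Jund differed by -0.14.

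The strict reading of highest or lowest asks that 4c differ from both sides. By the larger of the 2 pairwise p-values, adjusted over all features, 0 features were lowest and 0 highest at 4c in limma (smallest adjusted p = 0.273), while 249 were lowest (1.47%) and 157 highest (0.928%) at an unadjusted p under 0.05. With each comparison adjusted by itself, 13 of the 65 lower features passed both, 58 passed against 8c (0.644% of all features did so as lower, 0.0118% as higher) and 20 against 2c (1.02% as lower). None of the differences depended on the animals' age at an adjusted p under 0.05 (smallest adjusted p = 1; 347 features, 2.05%, at an unadjusted p under 0.05 by limma), and age and experiment cannot be told apart.

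Markers of the other liver cells were followed beside these values. For Kupffer cells, the liver's macrophages, 14 of 20 markers were tested, 0 passed in limma, and 9 were lower at an unadjusted p under 0.05 (7.4% of all features were). The Kupffer median was -1.12, made of -3.02 for 4c minus 2c and 0.20 for 4c minus 8c. Stellate cell markers (10 of 19 tested, 0 passing, 6 lower unadjusted) had a median of -1.25, made of -3.19 and 0.43, and sinusoidal endothelial markers (11 of 20 tested, 0 passing, 3 lower unadjusted) one of -0.79, made of -1.99 and 0.00. Only 5 of the 14 Kupffer, 4 of the 10 stellate and 5 of the 11 endothelial markers tested were above background on all 15 arrays. Some others passed the brightness filter through the 2c arrays alone: Cd163 and Lrat were above background on 5, 0 and 0 arrays at 2c, 4c and 8c. The medians therefore describe the tested members alone, and their 4c minus 8c values rest partly on dim spots. These medians hide members without a fall, such as Cd14 at 0.02 and Vwf at 0.07 for 4c minus 2c, and members still above 8c, such as Clec4f at 1.38 for 4c minus 8c. The summed Kupffer level ran from 1.12 to 4.28 at 2c, 0.67 to 1.25 at 4c and 0.58 to 1.12 at 8c, the stellate level from 3.79 to 4.69, 3.61 to 3.99 and 3.71 to 3.94, and the endothelial level from 1.83 to 2.40, 1.82 to 2.42 and 1.64 to 2.48. Clec4f, the defining Kupffer lectin, was at 0.45 ± 1.84, -3.33 ± 0.99 and -4.71 ± 2.09 (SD, n = 5), with a difference of -1.2 (adjusted p = 0.531 by limma). The part of these cells in the 4c difference was not tested.

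Among the brightest members of those lists the differences were small for Cd14 (-0.05) and Mpeg1 (-0.15) of the Kupffer list and for Vwf (0.08) and Cdh5 (-0.12) of the endothelial list, and larger for Bgn of the stellate list (-1.69, adjusted p = 0.388 by limma). Glul and Cyp2e1, which mark hepatocytes next to the central vein, differed by -0.60 and -0.20 (adjusted p = 0.404 and 0.435). Glul ran from 3.93 ± 0.51 at 2c through 1.71 ± 0.68 at 4c to 0.68 ± 1.2 at 8c (SD, n = 5), so its 4c level lay between the others. Of the hepatocyte identity genes 0 of 26 passed in limma, 1 was higher at an unadjusted p under 0.05, and Apoc3 and Ttr, the brightest, differed by 0.02 and 0.00.

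The tested pancreatic acinar transcripts also had their lowest group mean at 4c. Of 34 on the list 28 were tested, 0 passed in limma, and 15 were lower at an unadjusted p under 0.05 (7.4% of all features were). The median was -2.66, with -7.58, -2.67, -2.47, 0.04 and -0.45 in experiments 1 to 5. Only 6 of the 28 were above background on all 15 arrays, so the median describes the tested members alone and rests partly on dim spots. Prss1 was above background on 2, 1 and 3 of 5 arrays at 2c, 4c and 8c, and Cela1 on 2, 2 and 3. Their summed level ran from 4.08 to 10.52 at 2c, 3.81 to 7.86 at 4c and 4.07 to 9.69 at 8c. Prss1, which encodes trypsinogen, differed by -3.65 and the proteases Cela1 and Cpa1 by -1.96 and -0.80 (adjusted p = 0.466, 0.452 and 0.604 by limma); Amy2a3, an amylase gene, differed by -0.74. Without the 6 arrays rich in these transcripts the acinar median was -0.07, and Cdk1 differed by -2.39, Rrm2 by -2.27, Prim1 by -0.51 and Bst2 by 1.65, with 0 features passing in limma (599 lower and 325 higher at an unadjusted p under 0.05).

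**Figure D5:**
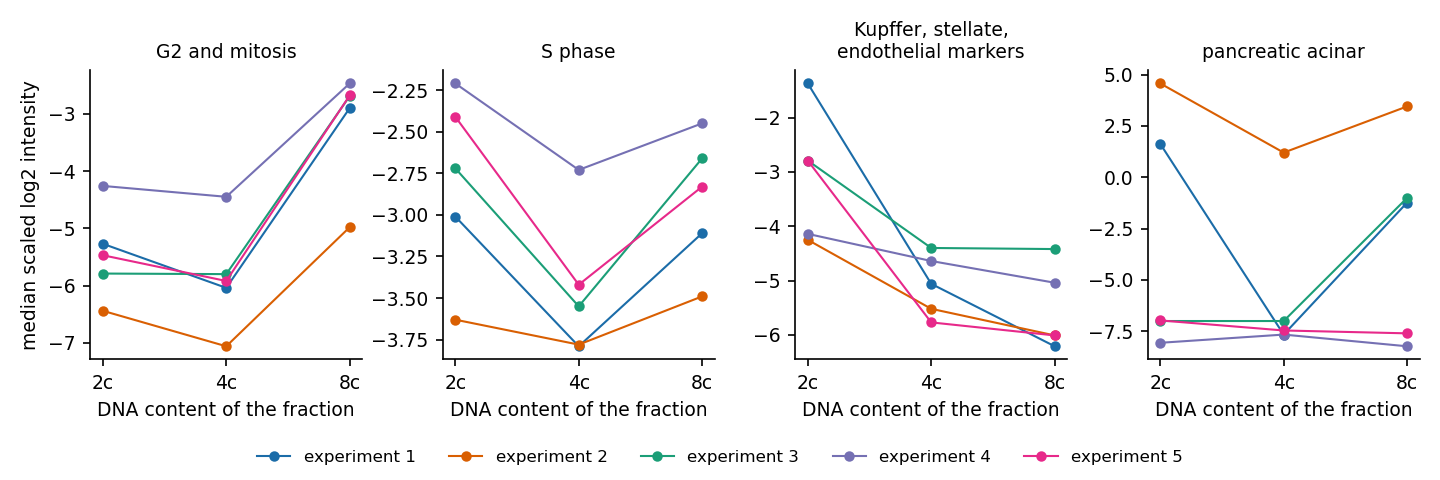
Median scaled log2 intensity of the tested members of 4 gene lists on each array, at 2c, 4c and 8c, with 1 line per experiment. The G2 and mitosis median rises from 4c to 8c and the S phase median dips at 4c in each experiment, markers of Kupffer, stellate and endothelial cells are highest at 2c, and the acinar median is above -4 on 6 arrays.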

How the data were processed

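RNA of 15 sorted fractions was read on one-colour Agilent arrays. The deposited files hold scanner intensity per spot, background-subtracted by Agilent Feature Extraction 11.5.1.1 per the file headers; the submitters' processing notes name version 10.7.3.1. The deposited table of intensity values, taken to log2, was used as an alternative.

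From these intensity values, control and outlier spots were left out, spots of a probe averaged, and log2 values scaled on each array by the 75th percentile of the 16211 probes that all 15 arrays detected above background. The brightest probe stood for a gene, and features above background on at least 5 of 15 arrays were tested. Names came from RefSeq by accession (23845 probes), symbol (5129) or synonym (352), and otherwise from the file (16272). limma 3.58.1 in R 4.3.3 fitted the fractions with experiment as a block, and p-values were adjusted by Benjamini-Hochberg. The fit was tested on simulated data. The experiment number in the labels was taken to pair the fractions. Deviations from the group means correlated with a median of 0.59 (0.04 to 0.79, 15 pairs) within an experiment and -0.16 between experiments. Subtracting group means by itself pulls the value between experiments below 0. Arrays of an experiment also share the animals' age and mostly the slide, so these values cannot single out the pairing.

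Genes were named by rule: per direction the 12 largest passing differences with the same sign in 5 experiments and a group fully above background; where fewer passed, the next by unadjusted p; for each described list up to 4 passing members, or the 2 brightest; and a fixed set of markers. Any other gene was named after its values were seen. Some genes that the rule selects are not reported here. Members, lists and tests were chosen with earlier results of these data known. Alternatives varied the scaling, background correction, filter, probe choice, block, slide and arrays left out. The number of arrays limits the precision.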

Additional observations from a re-analysis of the deposited data

Results flagged for a closer look

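For each list with enough members and each named gene, the 5 experiments' differences were searched for 1 far from the other 4 by Dixon's test; 5 of 34 lists and 6 of 62 genes had one, where chance gives about 1 in 20. All 5 lists were set apart by experiment 3, whose 8c array was on the other slide than its 2c and 4c arrays; the part of the slide was not tested. The lymphocyte median was 0.57 there and -0.14 to -0.05 elsewhere. The respiratory chain median was -0.15 against -0.03 to 0.01, that of ribosomal proteins -0.22 against -0.06 to 0.00, that of the proteasome -0.19 against -0.03 to 0.02, and that of Nrf2 targets -0.28 against -0.07 to -0.01. Cd14 was at -0.47 in experiment 3 and at 0.00 to 0.12 in the others.

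Experiment 4, with the 5-week animals, stood apart for the kinases Cdk1 and Nek2: Cdk1 was at -1.24 against -3.49 to -2.91, and Nek2 at -1.42 against -2.68 to -2.45. Tmub1 was at 0.09 there against 0.36 to 0.47. Experiment 5 stood apart for Hjurp, at -3.46 against -1.92 to -1.31, and for Icmt, at 0.47 against 0.26 to 0.29.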

How the results depend on the processing

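The 68 passing features kept their sign in every alternative in which they were tested (24 of them with the filter on all arrays), but their number and their size depended on the fit: over the alternatives Cdk1 ran from -3.19 to -1.43, Ccna2 from -3.05 to -0.78, Prim1 from -0.52 to -0.36, Bst2 from 1.40 to 1.65 and Stac from 0.10 to 1.14. The counts of lower and higher features were 45 and 4 with quantile scaling, 54 and 4 with the percentile over all probes, 52 and 5 without scaling, 7 and 1 with normexp, 25 and 1 without a filter, 22 and 2 with features above background on all arrays, 61 and 8 with the experiment as a random block, 46 and 3 with slide and experiment, and 83 and 4 with a trend. They were 0 and 0 in limma with no replicate block, with the 5 differences alone, with slide replacing experiment, within slide 2, without the 6 acinar-rich arrays and without experiments 1 and 2 (at an unadjusted p under 0.05, 464 and 293, 1161 and 749, 597 and 402, 782 and 214, 599 and 325, and 670 and 334), and 1 and 0 within slide 1. With 1 experiment left out they ran from 0 to 68 and from 0 to 10, and features lowest by both pairwise comparisons from 0 to 1 (Cdk1, without experiment 4). The causes were not tested. Among genes that did not pass, those near 0 changed sign. Ttr was at 0.01 with quantile scaling, 0.01 with the median, 0.02 with the percentile over all probes, 0.06 without scaling, 0.06 within slide 1 and 0.01 without experiments 1 and 2, and Alb at -0.01 with quantile scaling, -0.03 with slide and experiment, -0.21 within slide 2 and -0.03 without the acinar-rich arrays. Cd14 was at 0.02 without scaling. Within slide 2, Cd14 was at 0.02, Apoc3 at -0.07, Cela1 at 0.02 and Cpa1 at 0.08. Without the acinar-rich arrays Prss1 was at 0.06, Cela1 at 0.16 and Cpa1 at 0.06, and without experiments 1 and 2 Cdh5 was at 0.04. Leaving out 1 experiment gave -0.09 to 0.06 for Cd14, -0.35 to 0.07 for Cdh5, -0.04 to 0.08 for Apoc3, -0.13 to 0.11 for Ttr and -0.11 to 0.12 for Alb.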
